A study of Mus musculus with 9 samples.

Results

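Trp53, the mouse gene of the tumour suppressor p53, and 9 of its best known targets (Mdm2, Cdkn1a, Ccng1, Bax, Bbc3, Zmat3, Phlda3, Sesn1 and Trp53inp1) were followed across 3 untreated mouse tumour lines. The members were chosen by name, and all 10 were among the 11046 genes of the count table. They were picked with results of these libraries known, so their levels and differences are a description and carry no p-value. The number of members past the threshold used for all genes is given beside the share of all genes past it. It is repeated where the processing is varied, and it supports nothing.

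p53 is a transcription factor whose protein is kept low in resting cells by the ubiquitin ligase Mdm2 and is stabilised after DNA damage and other stress. It binds pairs of short half-sites near its target genes and raises their transcription, and those targets stop the cell cycle, start mitochondrial cell death, repair DNA or adjust metabolism. Because Mdm2 is itself a target, the pathway holds a feedback loop, and the basal level of several targets does not depend on p53 alone.

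RNA was sequenced from cultured cells of 482N1 (labelled lung NSCLC, a non-small cell lung cancer), of B16F10-BrM (melanoma, BRAF mutant) and of E0771-BrM (breast cancer, triple negative), where BrM stands for brain metastatic. Each line gave 3 libraries, named A, B and C. All 9 carry the genotype label WT and received no treatment, and the labels name no allele of Trp53. The 482N1 and B16F10-BrM cells grew in DMEM and the E0771-BrM cells in RPMI 1640 with hepes, so for E0771-BrM the medium and the line cannot be told apart. The labels do not say whether A, B and C were separate cultures, so SDs, SEs and p-values measure only the spread between these libraries, which may be technical.

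The libraries held 7332390 to 9293348 counts each, and no library was a copy of another. Summed melanocyte markers (4 of 7 measured) ran from 22046.5 to 22899 CPM, the count scaled to library size, in B16F10-BrM, from 2.41 to 25.9 in 482N1 and from 39.4 to 91.1 in E0771-BrM. The keratins Krt8 and Krt18 were at 0 to 1 count per library in B16F10-BrM and summed to 7289 to 7908 CPM in 482N1, while E0771-BrM had Krt8 at 188 CPM and Krt18 at 0.376. The lung markers Abca3 and Foxa1 summed to 61.6 to 64.1 CPM in 482N1, 9.38 to 14.2 in B16F10-BrM and 1.87 to 2.88 in E0771-BrM, and Nkx2-1, Sftpc, Krt5 and Krt14 were not analysed here. The endothelial marker Flt1 (93.6 CPM) and the leukocyte marker Cd14 (27.2 CPM) were also highest in 482N1. Cd68, the other leukocyte marker measured, was highest in E0771-BrM, at 15.8 CPM against 2.51 in 482N1 and 0.570 in B16F10-BrM. The part of Flt1, Cd14 and Cd68 in the results was not tested. Gata3 and Erbb2, the 2 mammary markers measured, summed to 6.34 to 8.23 CPM in E0771-BrM, below the 22.2 to 30.3 CPM of 482N1. Libraries A and C of 482N1 and of E0771-BrM carried more of the melanocyte transcript Dct (142, 148, 353 and 263 counts) than the B libraries (14 and 29). In 482N1 the Dct counts were 0.106%, 0.00979% and 0.109% of the B16F10-BrM level, and at those shares Trp53 would have 0.131, 0.0129 and 0.137 counts in A, B and C. Values with library B alone for 482N1 and E0771-BrM are given for Trp53, Bbc3 and Zmat3.

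Trp53 was nearly missing from the 482N1 libraries. It had 1, 0 and 0 counts in libraries A, B and C of 482N1, 153, 132 and 131 in B16F10-BrM, and 45, 74 and 70 in E0771-BrM. The 3 lines did not overlap, and B16F10-BrM was the highest in every library. Scaled to library size by the trimmed mean of M values (normalised CPM, the level used from here on), Trp53 stood at 0.0430 ± 0.0745 in 482N1 against 15.9 ± 0.649 in B16F10-BrM and 7.77 ± 1.79 in E0771-BrM (mean ± SD, n = 3 libraries). The counts gave a ratio of 381 between B16F10-BrM and 482N1, with a 95% interval of 68.0 to 15083, and a ratio of 187 between E0771-BrM and 482N1, with an interval of 33.1 to 7416. These intervals cover counting error only. The single 482N1 count came from library A. Without that library B16F10-BrM was at least 86-fold higher, taking 3 counts over libraries B and C as the floor, and E0771-BrM at least 42-fold higher, and with library B alone the bounds were 44.1 and 24.6. A count of 0 allowed up to 0.361 CPM in library B and 0.380 CPM in library C. E0771-BrM lay 2.05-fold below B16F10-BrM, a log2 difference of -1.03 ± 0.19 (coefficient ± SE). In bulk RNA, fewer cells with the transcript and less transcript per cell cannot be told apart.

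Low counts of this kind were uncommon in 482N1 among the genes of this table. Every gene in it had at least 8 counts in 3 or more libraries, and 10304 of the 11046 had counts in all 9. Genes low in every line were thus not in the table, and the shares hold only for the genes kept. A total of 3 counts or fewer over the 3 libraries of 482N1 was found for 102 of the 11037 genes tested (0.924%). Of these, 24 (0.217%) also reached at least the E0771-BrM level of Trp53 in both other lines, a cut-off set by Trp53 itself. The genes around Trp53 were not low together. Of the 3 nearest protein-coding genes on each side in the RefSeq order of GRCm38.p6 (Dnah2, Efnb3 and Wrap53, then Atp1b2, Shbg and Sat2), Wrap53 and Sat2 were in the table. Wrap53, which lies beside Trp53 on the opposite strand and encodes a telomerase and Cajal body protein, had 97, 79 and 70 counts in 482N1, 90, 73 and 64 in B16F10-BrM, and 131, 184 and 155 in E0771-BrM. It was detected in all 9 libraries, with E0771-BrM above both other lines (log2 difference from 482N1 0.91 ± 0.17, edgeR adjusted p = 3.98e-06). The deposited counts do not state a strand setting, so reads of such neighbouring genes near their shared border may not have been separated. Sat2, a polyamine acetyltransferase, ran the other way, with 126, 112 and 94 counts in 482N1, 30, 26 and 6 in B16F10-BrM, and 4, 2 and 0 in E0771-BrM (log2 difference of B16F10-BrM from 482N1 -2.54 ± 0.30, edgeR adjusted p = 5.13e-09). Over a wider list of 25 neighbours, 14 were measured, and the lowest of them in 482N1 was Cd68, a lysosomal protein of macrophages, at 2.51 ± 0.981 CPM.

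**Figure D1:**
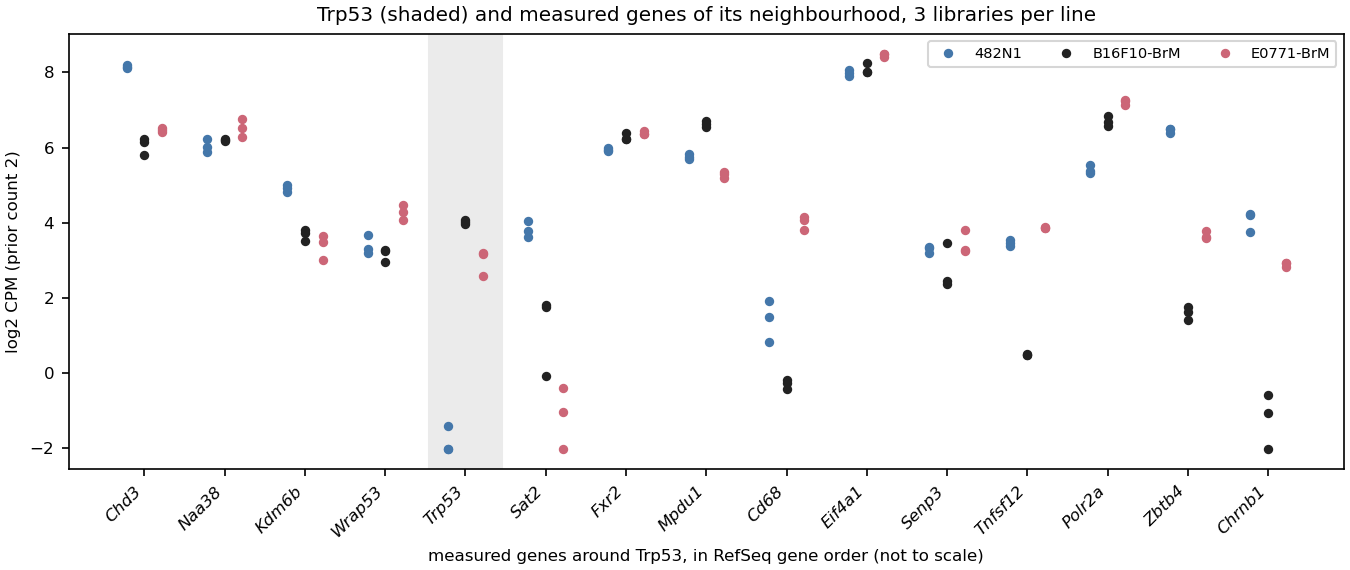
Level of Trp53 (shaded) and of the measured genes around it, as log2 CPM with a prior count of 2 on the vertical axis, in RefSeq gene order on the horizontal axis (not to scale). Each point is 1 library and colours mark the 3 lines. Trp53 drops to the bottom of the axis in the 3 libraries of 482N1, while Wrap53 beside it has 70 to 97 counts there and the low points of Sat2 and Chrnb1 belong to the other lines.

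Mdm2, the ligase that marks p53 for destruction, was present at high counts in all lines, 482N1 included. Its counts were 426, 410 and 488 in 482N1, 782, 676 and 764 in B16F10-BrM, and 843, 946 and 798 in E0771-BrM. The groups did not overlap in CPM and followed the order E0771-BrM (107 ± 7.01 CPM), B16F10-BrM (85.1 ± 3.79) and 482N1 (55.4 ± 6.27), which is not the order of Trp53. The spread between lines was small, with 1.93-fold between the highest and the lowest line (log2 0.95 ± 0.09) and 1.25-fold between the 2 brain metastatic lines (0.33 ± 0.09). Mdm4, the relative of Mdm2 that covers the p53 activation domain, varied less, at 37.9 ± 3.68 CPM in 482N1 against 45.9 ± 2.67 in B16F10-BrM and 44.1 ± 1.85 in E0771-BrM. Its excess in B16F10-BrM over 482N1 passed the test (log2 0.27 ± 0.10, edgeR adjusted p = 0.0157), but not without library A of 482N1 (adjusted p = 0.0898) or library C of B16F10-BrM (0.0697).

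Among the targets that act on the cell cycle, Cdkn1a, which encodes the cyclin-dependent kinase inhibitor p21, was highest in B16F10-BrM. It had 871, 807 and 1219 counts in 482N1, 2884, 2409 and 2407 in B16F10-BrM, and 443, 501 and 657 in E0771-BrM. All 3 lines were separate, and 482N1, the line with 1 count of Trp53, stood between the others, at 121 ± 29.7 CPM against 294 ± 12.1 in B16F10-BrM and 66.1 ± 13.9 in E0771-BrM. B16F10-BrM was 2.43-fold above 482N1 (log2 1.28 ± 0.19), and E0771-BrM was 1.84-fold below it (-0.88 ± 0.21). Between the brain metastatic lines the gap was 4.45-fold (-2.16 ± 0.20). Cdkn1b, the paralog that encodes p27, had another order, 234 ± 32.5 CPM in 482N1 against 62.7 ± 2.52 in B16F10-BrM and 76.3 ± 3.13 in E0771-BrM. Its log2 difference of B16F10-BrM from 482N1 was -1.90 ± 0.09 (edgeR adjusted p = 1.37e-24), opposite in sign to that of Cdkn1a.

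Ccng1, an early p53 target that recruits a phosphatase to Mdm2, was also highest in B16F10-BrM. Its counts were 305, 322 and 316 in 482N1, 855, 716 and 899 in B16F10-BrM, and 327, 300 and 325 in E0771-BrM. B16F10-BrM stood 2.40-fold above either of the others (log2 1.26 ± 0.10 against 482N1), whereas 482N1 and E0771-BrM overlapped, at 39.4 ± 0.651 and 39.3 ± 2.94 CPM. Their log2 difference was -0.00 ± 0.10. Ccng2, its paralog, had 234, 218 and 300 counts in 482N1, 23, 26 and 33 in B16F10-BrM, and 32, 16 and 34 in E0771-BrM. It was thus highest in the line where Trp53 was lowest, with B16F10-BrM below 482N1 by -3.32 ± 0.21 on the log2 scale (edgeR adjusted p = 1.24e-18).

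The death genes did not share 1 order. Bax, the pore-forming protein of the mitochondrial outer membrane, had 83, 117 and 124 counts in 482N1, 286, 145 and 171 in B16F10-BrM, and 43, 46 and 60 in E0771-BrM. The lines were separate in CPM, with library A of B16F10-BrM (29.8 CPM) well above B and C (18.2 and 19.9). E0771-BrM was 3.68-fold below B16F10-BrM (log2 -1.89 ± 0.19) and 2.19-fold below 482N1 (-1.13 ± 0.20). Bbc3, which encodes the BH3-only protein PUMA that unleashes Bax, ran in the opposite order. It had 144, 94 and 168 counts in 482N1, 69, 73 and 68 in B16F10-BrM, and 328, 298 and 205 in E0771-BrM. Again the lines were separate, and the melanoma line was the lowest. E0771-BrM was 4.24-fold above B16F10-BrM (log2 2.09 ± 0.21), and 482N1 was 2.11-fold above it (B16F10-BrM against 482N1 at -1.08 ± 0.23). With library B alone for 482N1 the latter difference was -0.49.

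The paralogs of Bax differed from it as well. Bak1, the other pore former, was lowest in 482N1 (18.2 ± 1.62 CPM) and highest in E0771-BrM (60.2 ± 5.94), with a log2 difference between these of 1.72 ± 0.12 (edgeR adjusted p = 5e-17). Bok, a further relative, had 333, 315 and 310 counts in 482N1, 206, 220 and 221 in E0771-BrM, and 2, 1 and 5 in B16F10-BrM. It was 131-fold lower in B16F10-BrM than in 482N1 (log2 -6.96 ± 0.25, edgeR adjusted p = 1.45e-29).

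Zmat3, a zinc finger protein that binds RNA and regulates splicing, was the target with the largest ratio between its highest line and the next. It had 112, 140 and 116 counts in 482N1, 929, 898 and 786 in B16F10-BrM, and 162, 178 and 179 in E0771-BrM. No library of B16F10-BrM came near the others, with 100.3 ± 10.99 CPM against 15.3 ± 1.32 in 482N1 and 21.4 ± 0.881 in E0771-BrM. That was 6.54-fold above 482N1 (log2 2.71 ± 0.11) and 4.69-fold above E0771-BrM. E0771-BrM exceeded 482N1 by 1.40-fold (0.48 ± 0.13), or 0.34 with library B alone for these lines. Of the measured Zmat family genes, Zmat2 also peaked in B16F10-BrM, by less (1.67-fold above 482N1, log2 0.74 ± 0.08, edgeR adjusted p = 5.25e-12), and Zmat1 was highest in 482N1 (14.2 ± 3.88 CPM, against 6.04 ± 0.595 in B16F10-BrM and 0.742 ± 0.110 in E0771-BrM). Zmat5 ran from 11.6 to 15.3 CPM between line means.

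Phlda3 and Trp53inp1 shared a low level in E0771-BrM. Phlda3, a pleckstrin homology protein that competes with Akt for membrane lipids, had 131, 138 and 148 counts in 482N1, 246, 171 and 152 in B16F10-BrM, and 51, 32 and 22 in E0771-BrM. The first 2 lines overlapped, at 17.4 ± 1.17 and 21.6 ± 3.96 CPM, and every library of E0771-BrM was below them, at 4.35 ± 1.92. E0771-BrM was 4.96-fold below B16F10-BrM (log2 -2.32 ± 0.20) and 4-fold below 482N1. Trp53inp1, a nuclear protein linked to p53 phosphorylation and autophagy, had 86, 83 and 87 counts in 482N1, 136, 130 and 133 in B16F10-BrM, and 30, 23 and 22 in E0771-BrM. Its 3 lines were separate, with E0771-BrM 4.94-fold below B16F10-BrM (log2 -2.30 ± 0.21) and B16F10-BrM 1.43-fold above 482N1 (0.52 ± 0.17). Their paralogs shared part of this order. Trp53inp2 was also lowest in E0771-BrM, at 3.47 ± 0.298 CPM against 20.3 ± 0.242 in 482N1 (log2 -2.54 ± 0.18, edgeR adjusted p = 1.76e-17), as was Phlda1, at 211 ± 7.18 CPM against 298 ± 7.37 (-0.50 ± 0.07, adjusted p = 1.63e-08). Phlda2, named after its values were seen, was lowest in B16F10-BrM, at 0.886 ± 0.505 CPM.

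Sesn1, a sestrin that restrains growth signalling through mTORC1, was the member whose 3 lines all overlapped. It had 22, 26 and 33 counts in 482N1, 59, 23 and 43 in B16F10-BrM, and 36, 32 and 39 in E0771-BrM. Library B of B16F10-BrM was the second lowest of the 9 libraries in CPM and library A was the highest. The log2 differences from 482N1 were 0.48 ± 0.28 for B16F10-BrM and 0.38 ± 0.28 for E0771-BrM. Without library B of B16F10-BrM the first was 0.72. The other sestrins differed widely. Sesn2 was lowest in 482N1, at 6.35 ± 2.09 CPM against 14.1 ± 2.33 in B16F10-BrM and 41.8 ± 11.2 in E0771-BrM (log2 2.71 ± 0.21 for E0771-BrM against 482N1, edgeR adjusted p = 2.25e-10). Sesn3 had 131, 163 and 144 counts in 482N1, 270, 250 and 243 in B16F10-BrM, and 3, 0 and 1 in E0771-BrM, which put E0771-BrM 108-fold below 482N1 (edgeR adjusted p = 3.45e-23).

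**Figure D2:**
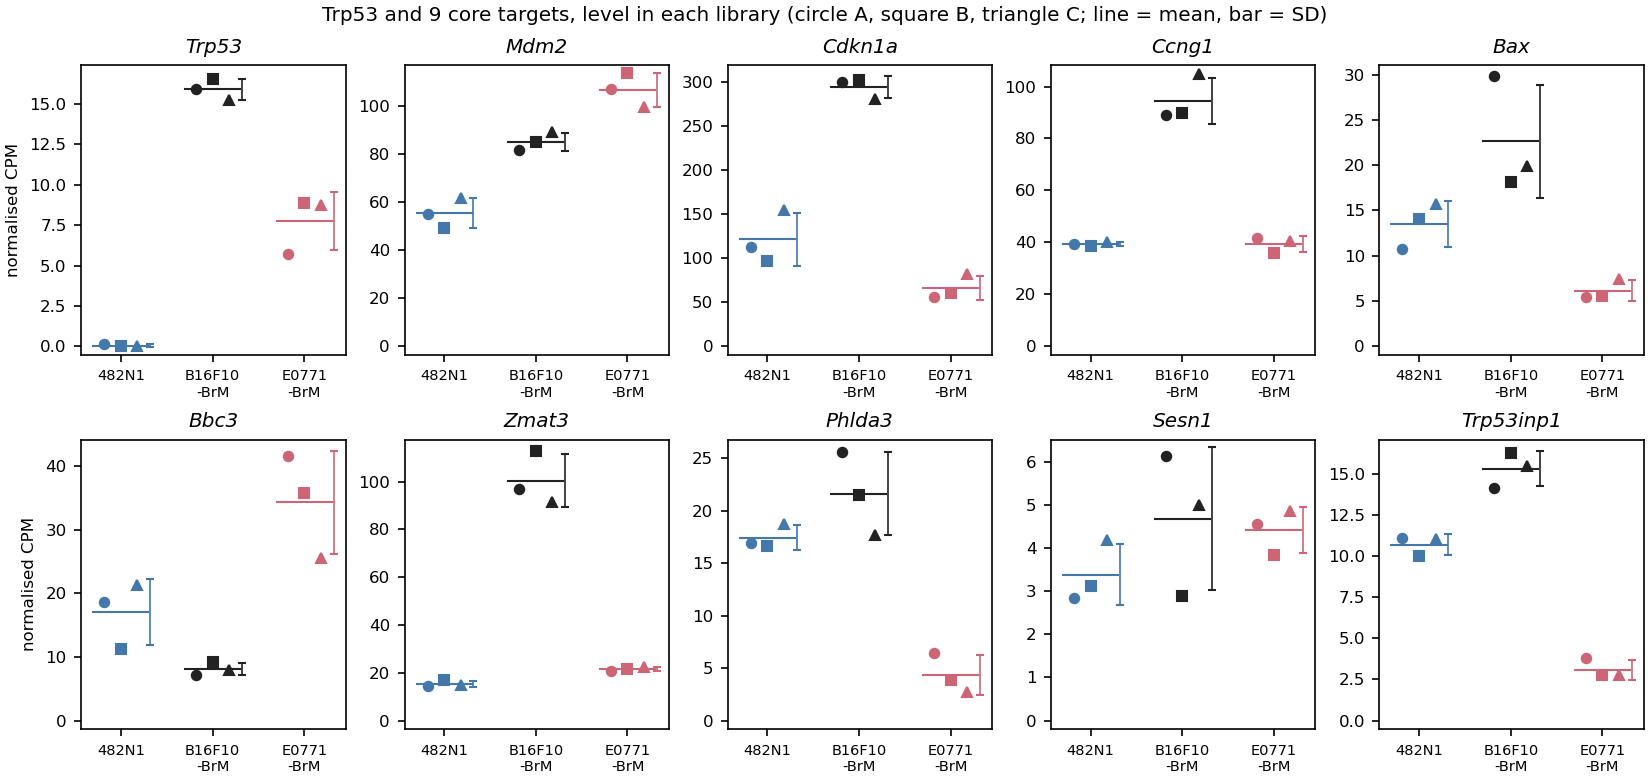
Normalised CPM of the 10 members in each library, 1 panel per gene with its own vertical axis. Symbols mark libraries A, B and C of the 3 lines on the horizontal axis, lines mark the mean and bars the SD over 3 libraries. Trp53 is near 0 in 482N1 alone, whereas the 9 targets are present in all libraries, and Sesn1 is the gene whose 3 groups overlap.

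**Figure D3:**
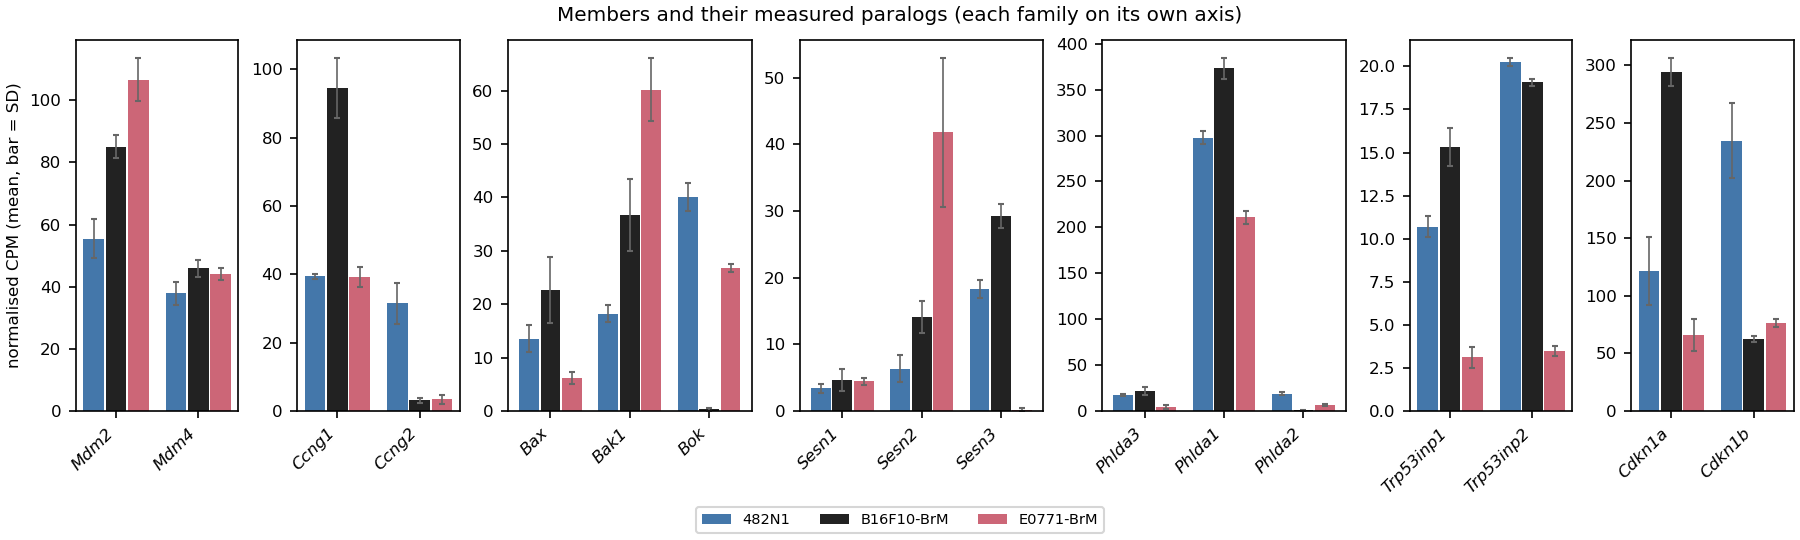
Mean normalised CPM on the vertical axis, with SD bars over 3 libraries, for members and their measured paralogs, 1 panel per family with its own axis and bar colours for the 3 lines. Within a family the lines rank differently: Bok is nearly missing in B16F10-BrM, Sesn3 in E0771-BrM, and Ccng2 and Cdkn1b are highest in 482N1. Bar heights of different genes are not per transcript length.

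Seen together, 8 of the 10 members had their highest mean in B16F10-BrM, 2 (Mdm2 and Bbc3) in E0771-BrM and 0 in 482N1. In 6 of the 8 the B16F10-BrM libraries lay above all others (Trp53, Cdkn1a, Ccng1, Bax, Zmat3 and Trp53inp1). Among all genes tested, 31.8% had their highest mean in B16F10-BrM, 31.2% in E0771-BrM and 37.0% in 482N1, and 21.9% were highest in B16F10-BrM without overlap. The full order of Trp53, B16F10-BrM above E0771-BrM above 482N1 with no overlap, was met by 1 target, Zmat3. Cdkn1a, Bax and Trp53inp1 were separate in the order B16F10-BrM, 482N1, E0771-BrM. The shares of all genes tested with these full orders are not given here. Nothing is therefore read from the number of members in each order.

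Set against the threshold used for all genes (edgeR adjusted p below 0.05, called here), B16F10-BrM was higher than 482N1 in 7 members and lower in 1, and 2 fell short. Over all genes tested 77.8% were called in this comparison, 38.0% as higher and 39.9% as lower, and the members' share of 80% was near that background. E0771-BrM was higher than 482N1 in 4 members (Trp53, Mdm2, Bbc3 and Zmat3) and lower in 4 (Cdkn1a, Bax, Phlda3 and Trp53inp1), against a background of 78.1% called, 37.7% as higher and 40.4% as lower. E0771-BrM was higher than B16F10-BrM in 2 members and lower in 7, where 73.7% of all genes were called, 37.2% as higher and 36.5% as lower. The libraries of the 2 lines did not overlap in CPM in 8, 8 and 9 members, beside 78.7%, 78.5% and 75.5% of all genes. The members' median log2 difference was 0.69, 0.19 and -1.58 in these 3 comparisons, beside -0.04, -0.04 and 0.02 over all genes. The 3 comparisons share libraries with one another, and the rule had used these contrasts, so nothing is read from the counts. With library B alone, 482N1 and E0771-BrM have 1 library each and no spread of their own, so only log2 differences are given. That of Bbc3 was -0.49 in the first comparison and that of Zmat3 was 0.34 in the second.

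**Figure D4:**
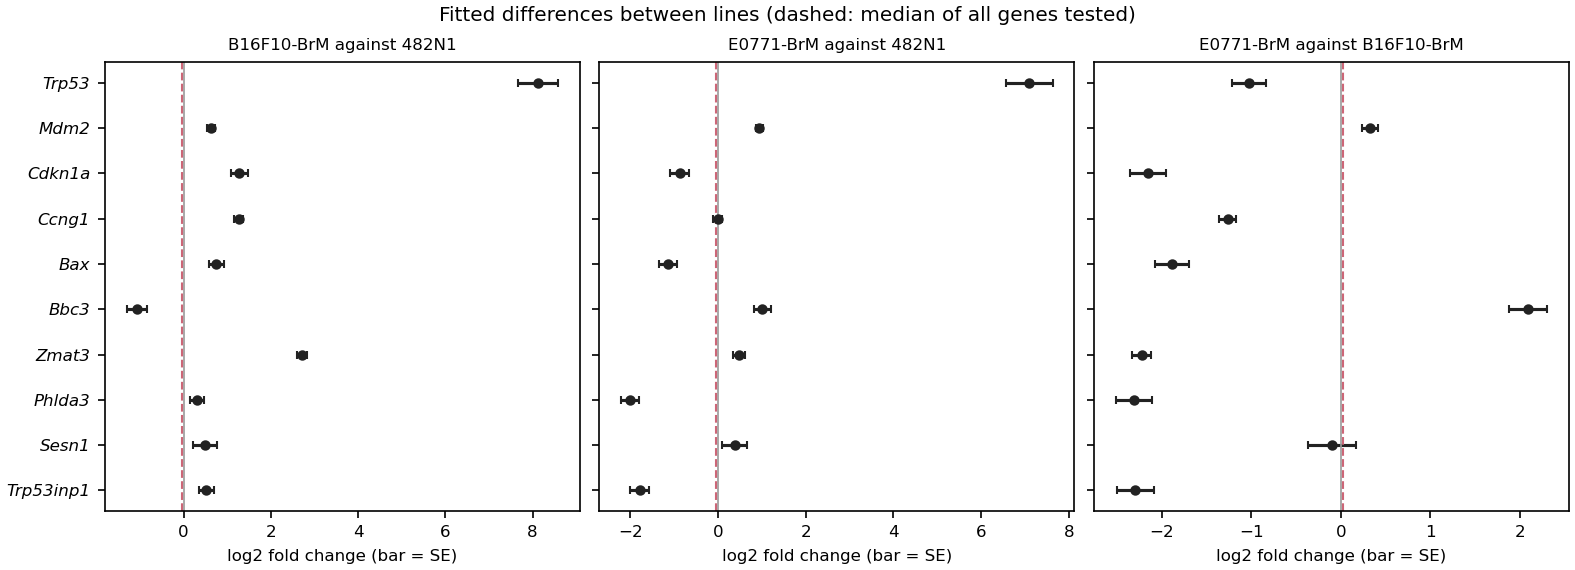
Fitted log2 difference of each member on the horizontal axis, with SE bars, in 1 panel per comparison, and the median of all genes tested as a dashed line. The points of Trp53 against 482N1 rest on 1 count and depend on the prior count. In the panel of E0771-BrM against B16F10-BrM, Mdm2 and Bbc3 are the members to the right of 0.

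The spread between libraries of a line was modest for most members. The coefficient of variation over 3 libraries, leaving out Trp53 in 482N1, ranged from 1.65% to 44.0% with a median of 11.9%. Levels of different genes were compared only after division by the median length of their protein-coding transcripts in GENCODE M21. On that scale of CPM per kb, Cdkn1a led in B16F10-BrM at 191 ± 7.84, followed by Bax at 28.3 ± 7.81, Mdm2 at 27.3 ± 1.21 and Ccng1 at 26.9 ± 2.52, which did not differ beyond their spread. Trp53 stood at 8.86 ± 0.361 and Sesn1, the lowest there, at 1.46 ± 0.516. In E0771-BrM Bbc3 stood at 70.7 ± 16.8 and Cdkn1a at 42.8 ± 8.98, but this order turns with the transcript chosen. Divided by the longest annotated transcript (1814 bases for Bbc3, against a median of 485), Bbc3 came to 18.9 ± 4.48 and Cdkn1a to 31.8 ± 6.66. Bax also has transcripts of very unequal length (222 to 1100 bases).

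The genes whose profiles over the 9 libraries came nearest to that of Trp53 were Rbms3, Ppm1h, Rrm2, Nnmt and Rhoj. Likeness was the Euclidean distance between log2 CPM profiles after removal of each gene's mean, and it ran from 1.01 for Rbms3 to 1.16 for Rhoj. None of the 5 was a member, and the nearest member was Zmat3 at 5.55. The level of Trp53 in 482N1 rests on 1 count, so its log2 CPM there is largely set by the prior count of 2. The size of its distances depends on that setting, and no lack of likeness between Trp53 and its targets is read from them. Rbms3, an RNA-binding protein, stood at 0.208 ± 0.0685 CPM in 482N1 against 25.1 ± 0.689 in B16F10-BrM and 14.5 ± 0.910 in E0771-BrM. Ppm1h and Nnmt were at 0 counts in 482N1. For Cdkn1a the nearest genes were Zfp523, Rhoq, Ndfip2, Cdip1 and Tmco4, at distances of 0.611 to 0.700. Here a member followed soon after, Bax at 0.999, then Ccng1 at 1.42 and Trp53inp1 at 1.43.

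The start regions of the members were read from RefSeq promoter windows (GRCm38.p6), because these genes are classed together by p53 binding. Each window covers 250 bases before and 50 after a transcript start, and 8 of the 10 members had 1 or more, 12 windows in all. The p53 half-site, a run of 10 bases, was searched on both strands with no mismatch. It was found in 8.36% of the 32851 windows of the table, in 6 of the 12 member windows and in 6 of the 8 members (Trp53, Mdm2, Cdkn1a, Ccng1, Bax and Sesn1). For Cdkn1a 2 windows were in the table, and the upstream one was the member window that held 2 half-sites with a spacer of 0 to 13 bases, a pattern found in 0.0731% of all windows. It also held CATGNNNNNNCATG, found in 0.712% of all windows, which overlaps the second half-site. It is shown whole because it carried both patterns, with the half-sites and that core in capitals, at chr17:29090729-29091028 on the plus strand.
Cdkn1a: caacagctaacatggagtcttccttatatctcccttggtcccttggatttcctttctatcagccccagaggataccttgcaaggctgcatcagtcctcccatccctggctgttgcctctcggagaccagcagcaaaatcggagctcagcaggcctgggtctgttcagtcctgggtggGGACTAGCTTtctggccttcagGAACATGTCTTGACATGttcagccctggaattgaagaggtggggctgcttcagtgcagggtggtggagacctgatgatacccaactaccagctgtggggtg

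Its half-sites begin 73 and 51 bases before the start, 12 bases apart. In the other members with a match the half-site stood alone, and each is shown in capitals with 10 bases on either side, in the direction of the gene. The stretches lie at chr11:69580274-69580303 for Trp53, chr10:117710925-117710954 for Mdm2, chr11:40755452-40755481 for Ccng1, chr7:45467080-45467109 for Bax and chr10:41887256-41887285 for Sesn1, with Mdm2, Ccng1 and Bax on the minus strand.
Trp53: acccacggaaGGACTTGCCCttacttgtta
Mdm2: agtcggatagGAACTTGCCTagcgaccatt
Ccng1: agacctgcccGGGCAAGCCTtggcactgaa
Bax: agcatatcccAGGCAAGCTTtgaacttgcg
Sesn1: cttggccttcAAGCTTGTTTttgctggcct
A match describes the letters of these windows and not a bound site. The windows of Bbc3 and Phlda3 held no match, which says only that the pattern is not in these 300 bases.

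Beyond the members, 118 further genes of the pathway were listed as regulators of p53 or as its targets, with earlier results of these data known, and 92 were measured. B16F10-BrM differed from 482N1 in 77 of them (37 higher, 40 lower, 83.7% beside 77.8% of all genes). E0771-BrM differed from 482N1 in 73 (34 higher, 39 lower, 79.3% beside 78.1%) and from B16F10-BrM in 70 (39 higher, 31 lower, 76.1% beside 73.7%). The medians of the log2 differences were -0.01, -0.10 and 0.09. These shares were near the background, and the directions were mixed. Library B alone leaves a single library for 482N1 and for E0771-BrM, so no numbers called are given for that setting.

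Of the regulators, 27 of 33 were measured, and 10 were higher and 8 lower in B16F10-BrM than in 482N1. That was 66.7% called, beside 77.8% of all genes. The damage kinase Chek1 had 38, 62 and 32 counts in 482N1, 289, 239 and 278 in B16F10-BrM, and 220, 266 and 260 in E0771-BrM, with log2 differences from 482N1 of 2.48 ± 0.16 in both (edgeR adjusted p = 3.98e-19 and 5.75e-19). Usp10, a deubiquitinase that spares p53, was highest in 482N1, at 93.1 ± 8.17 CPM against 39.8 ± 2.23 in B16F10-BrM and 42.6 ± 3.72 in E0771-BrM. So was Ppp1r13l, the inhibitory ASPP protein that binds p53, at 18.3 ± 4.19 CPM against 1.93 ± 0.377 and 7.23 ± 1.58. Against 482N1, E0771-BrM was higher in 14 regulators and lower in 7 (77.8% called, beside 78.1% of all genes). Its largest fitted difference among them was in Ppp1r13b, an activating ASPP protein, with 0, 1 and 1 counts against 84, 67 and 85 in 482N1 and 99, 110 and 91 in B16F10-BrM, a ratio of counts of 119 to 482N1 (95% interval 32.7 to 992). Hipk2, a kinase that phosphorylates p53, was 4.81-fold lower in E0771-BrM than in 482N1 (log2 -2.27 ± 0.13, edgeR adjusted p = 1.26e-21). Sirt1, a deacetylase of p53, was 3.75-fold higher in E0771-BrM than in B16F10-BrM (1.90 ± 0.18, adjusted p = 3.73e-13). Between these last 2 lines 9 regulators were higher and 5 lower in E0771-BrM (51.9% called, beside 73.7% of all genes).

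The arrest targets beside Cdkn1a and Ccng1 were mostly lower in B16F10-BrM than in 482N1, the line with 1 count of Trp53. Of 15 measured (19 listed), 11 were lower and 2 higher in B16F10-BrM than in 482N1, with a median log2 difference of -1.52 (86.7% called, beside 77.8% of all genes, and 39.9% of all genes called lower). The 11 include Ccng2 and Cdkn1b, already described as paralogs of members. Of the 11, Fbxw7 was not called without library B of 482N1 (edgeR adjusted p = 0.233). The antiproliferative gene Btg1 had 3257, 3485 and 3862 counts in 482N1, 232, 143 and 137 in B16F10-BrM, and 1051, 775 and 900 in E0771-BrM (B16F10-BrM against 482N1 log2 -4.51 ± 0.16, edgeR adjusted p = 1.96e-12). Its relative Btg2 was at 11.4 ± 0.200 CPM in 482N1 against 1.59 ± 0.590 in B16F10-BrM and 0.416 ± 0.201 in E0771-BrM. Gadd45a, a damage-inducible stress protein, was 8.27-fold higher in E0771-BrM than in B16F10-BrM (3.06 ± 0.19, adjusted p = 2.85e-19). E0771-BrM was higher than 482N1 in 4 arrest targets and lower in 7 (median -0.55), and higher than B16F10-BrM in 10 and lower in 4 (median 0.68). The shares called were 73.3% and 93.3%, beside 78.1% and 73.7% of all genes. Plk3, a stress kinase, was the leading higher gene, with 208, 218 and 254 counts in E0771-BrM against 28, 14 and 16 in 482N1 and 33, 7 and 28 in B16F10-BrM. Psrc1, a spindle protein, was nearly missing there, with 0, 0 and 1 counts against 436, 360 and 429 in B16F10-BrM.

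Of the other death-related targets, 13 of 20 were measured. In B16F10-BrM 7 were higher and 5 lower than in 482N1 (median log2 difference 0.33), and in E0771-BrM 4 were higher and 8 lower than in 482N1 (-0.50). In both comparisons 92.3% were called, beside 77.8% and 78.1% of all genes. Pmaip1, which encodes the BH3-only protein NOXA, had 212, 207 and 296 counts in 482N1, 40, 49 and 46 in E0771-BrM and 0 in each library of B16F10-BrM. It was at least 260-fold lower in B16F10-BrM than in 482N1, taking 3 counts over the line as the floor (edgeR adjusted p = 2.39e-25). Bid, a BH3-only gene of the same list named after its values were seen, was highest in B16F10-BrM, at 11.4 ± 0.484 CPM against 6.11 ± 1.07 in 482N1 and 2.85 ± 0.290 in E0771-BrM, so the BH3-only genes did not share a direction. Tnfrsf23, a decoy death receptor, had 276, 220 and 227 counts in 482N1 and 0, 0 and 1 in B16F10-BrM. Dram2, an autophagy regulator, was 4.18-fold lower in B16F10-BrM and 5.54-fold lower in E0771-BrM than in 482N1 (adjusted p = 1.87e-16 and 2.16e-18).

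Targets listed under DNA repair and nucleotides were measured for 13 of 14, and this list also holds Rps27l, Dgka and Fdxr. B16F10-BrM was higher than 482N1 in 7 and lower in 5 (median log2 difference 0.70), and E0771-BrM was higher in 4 and lower in 5 (0.04). The shares called were 92.3% and 69.2%, beside 77.8% and 78.1% of all genes. Rps27l, a ribosomal protein paralog that is a direct p53 target, followed the order of Trp53, with 667, 846 and 749 counts in 482N1, 3469, 2676 and 3416 in B16F10-BrM, and 1387, 1592 and 1391 in E0771-BrM. The 3 lines were separate, with B16F10-BrM above 482N1 by 1.95 ± 0.08 on the log2 scale (edgeR adjusted p = 7.55e-27). Polh, a polymerase that copies past DNA lesions, was 4.18-fold higher in B16F10-BrM and 3.17-fold higher in E0771-BrM than in 482N1 (adjusted p = 3.28e-17 and 1.4e-13). Ddb2, which recognises ultraviolet damage, ran against this, with 52, 39 and 36 counts in 482N1, 11, 11 and 7 in B16F10-BrM, and 17, 5 and 22 in E0771-BrM. Dgka, a diacylglycerol kinase, was 31.6-fold lower in B16F10-BrM than in 482N1 (-4.95 ± 0.27, adjusted p = 9.46e-22). E0771-BrM was higher than B16F10-BrM in 3 genes of this list and lower in 6 (69.2% called, beside 73.7% of all genes). Among these were Ercc5, an excision nuclease (-1.81 ± 0.16, adjusted p = 5.17e-14), and Fancc, of the Fanconi pathway (-0.89 ± 0.25, adjusted p = 0.00162).

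Metabolic and other targets were measured for 24 of 32. Of these, 11 were higher and 11 lower in B16F10-BrM than in 482N1 (91.7% called, beside 77.8% of all genes). Several of the lower ones were at or near 0 in B16F10-BrM. Epha2, a receptor tyrosine kinase, had 161, 118 and 109 counts in 482N1, 84, 59 and 71 in E0771-BrM and 0 in B16F10-BrM, at least 141-fold below 482N1 (edgeR adjusted p = 8.86e-21). Cgref1, a secreted growth regulator, was likewise at 0 there and at least 102-fold below 482N1. Abcb1a, a drug efflux pump, had 1 count over the 3 B16F10-BrM libraries, against 238, 299 and 269 counts in 482N1. E0771-BrM was higher than 482N1 in 8 genes of the list and lower in 12 (median -0.41, 83.3% called, beside 78.1% of all genes). Ephx1, an epoxide hydrolase, was 50.5-fold lower (edgeR adjusted p = 7.41e-25) and Dcxr, a carbonyl reductase, 12.6-fold lower (adjusted p = 1.41e-15). E0771-BrM was higher than B16F10-BrM in 13 genes of the list and lower in 8 (87.5% called, beside 73.7% of all genes).

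**Figure D5:**
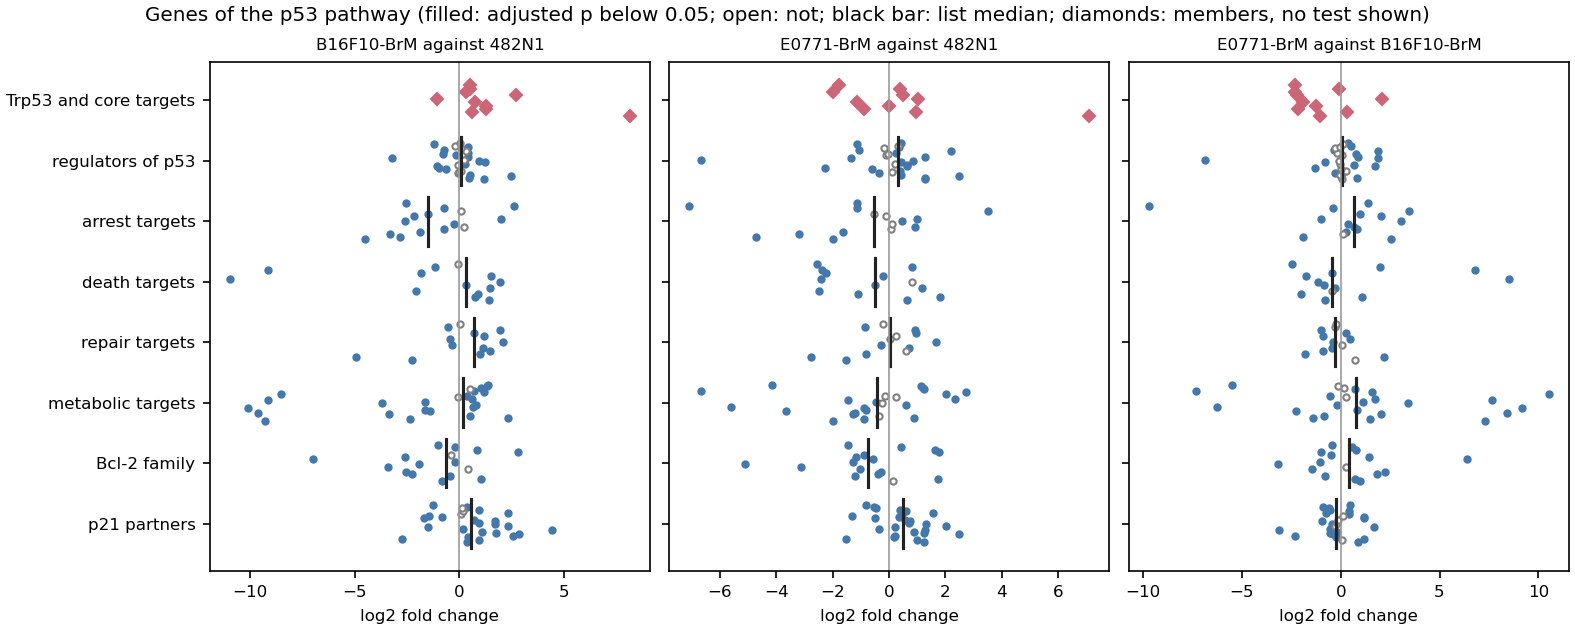
Log2 difference between lines on the horizontal axis for the members (diamonds, with no test shown) and for the genes of 7 further lists (circles, filled where the adjusted p is below 0.05), 1 panel per comparison, with the list median as a black bar. Each list has genes on both sides of 0. The bar of the arrest targets is at -1.52 for B16F10-BrM against 482N1, and the outermost points include genes with 0 or 1 counts in a line, such as Pmaip1 and Psrc1.

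The machinery on which p21 acts was set beside Cdkn1a. Of 26 measured cyclins, kinases, RB and DREAM genes (30 listed), 17 were higher and 6 lower in B16F10-BrM than in 482N1 (88.5% beside 77.8% of all genes, median log2 difference 0.55), and 19 were higher and 7 lower in E0771-BrM than in 482N1 (100% beside 78.1%, median 0.51). Some of these 26 calls were weak: that of Ccnd3 (0.22 ± 0.08) ended without library B of 482N1 (edgeR adjusted p = 0.163) or of E0771-BrM (0.114). Those of Ccnd2, Cdk6, E2f5, Lin9 and Rbl1 also ended with 1 library left out. Their edgeR adjusted p then reached 0.170, 0.225, 0.217, 0.0567 and 0.0749. Cdk2, the S phase kinase inhibited by p21, had 87, 68 and 69 counts in 482N1, 2084, 1534 and 1670 in B16F10-BrM, and 199, 184 and 172 in E0771-BrM, and so was highest in the line where Cdkn1a was highest (log2 4.43 ± 0.11 against 482N1, edgeR adjusted p = 1.43e-35). Its partner Ccne1 was 7.25-fold higher in B16F10-BrM and 5.57-fold higher in E0771-BrM than in 482N1. Pcna, the replication clamp that p21 also binds, stood at 50.1 ± 0.780 CPM in 482N1 against 247 ± 23.1 in B16F10-BrM and 148 ± 6.70 in E0771-BrM. The D cyclins differed in direction. Ccnd1 was 6.67-fold lower (-2.74 ± 0.07, adjusted p = 1.77e-34) and Ccnd3 5.88-fold higher (2.56 ± 0.08, adjusted p = 3.06e-31) in B16F10-BrM than in 482N1. Cdkn2c, an inhibitor of the D cyclin kinases, was higher in both brain metastatic lines than in 482N1 (2.32 ± 0.21 and 2.00 ± 0.21, adjusted p = 3.48e-14 and 8.63e-12).

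The Bcl-2 family around Bax and Bbc3 was mostly lower than in 482N1. Of 16 measured (20 listed), 11 were lower and 3 higher in B16F10-BrM (median log2 difference -0.63, beside 39.9% lower among all genes), and 11 were lower and 4 higher in E0771-BrM (-0.73, beside 40.4%). Some calls were weak. Those of Bnip3l and Mcl1 in B16F10-BrM ended (edgeR adjusted p = 0.393 and 0.0847) when library C of 482N1 was left out, and likewise for library A of B16F10-BrM (0.0526 and 0.0888). That of Bnip3l also ended without library A of 482N1 (0.0558) or C of B16F10-BrM (0.0972), and that of Bcl2l11 in E0771-BrM without library C of either line (0.133 and 0.105). Bcl2l11, which encodes the BH3-only protein BIM, was 5.86-fold lower in B16F10-BrM than in 482N1 (-2.53 ± 0.14, edgeR adjusted p = 1.38e-21). Bmf, another BH3-only gene, had 51, 47 and 44 counts in 482N1, 2, 7 and 5 in B16F10-BrM, and 4, 7 and 5 in E0771-BrM. Bnip3, a mitophagy receptor, had 5397, 4674 and 6562 counts in 482N1, 1814, 1765 and 1212 in B16F10-BrM, and 153, 146 and 195 in E0771-BrM. Cycs, the cytochrome c released through Bax and Bak1 pores, ran the other way, at 44.9 ± 1.41 CPM in 482N1 against 313 ± 10.0 in B16F10-BrM and 155 ± 13.9 in E0771-BrM (2.80 ± 0.08 for B16F10-BrM against 482N1, adjusted p = 1.33e-32). E0771-BrM was higher than B16F10-BrM in 8 genes of the family and lower in 7 (median 0.44, 93.8% called, beside 73.7% of all genes).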

How the data were processed

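The authors deposited raw read counts per gene symbol, from poly(A) selected, strand-specific (TruSeq) libraries of 3 lines, 3 libraries each. Per the submitters' processing notes, FastQC, TopHat2 2.0.10, Bowtie 1.0.0, SAMtools 0.1.19, Cufflinks 2.2.1 and the mouse build GRCm39 were used. The counting tool, its strand setting, the annotation and the choice of genes are not given in the sources used here.

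The counts were fitted with edgeR 4.0.16 in R 4.3.3: filterByExpr removed 9 of 11046 genes and left 11037 (all 10 members among them), TMM scaling, 1 coefficient per line over all 9 libraries, robust quasi-likelihood F tests, 2-sided, and Benjamini-Hochberg adjustment over all genes tested, with a threshold of 0.05 (common dispersion 0.005902). A gene at 0 in a line has its fold given against 3 counts over the line, and 1 to 3 counts give a count ratio with a 95% interval. List medians were the same with such genes put at their bound. The members and gene lists were chosen with earlier results of these data known. Other genes are named by rule: up to 3 called genes per list and comparison by size of log2 difference among those with at least 5 CPM in 1 line and no overlap, the measured paralogs and the nearest neighbours. Phlda2 was added later. Of the genes this rule selects, 1 is not reported here. Alternatives were other scalings and filters, limma-voom (limma 3.58.1), DESeq2 1.42.0, a block for the library letter, omission of each library in turn, fits of 2 lines alone, and library B alone for 482N1 and E0771-BrM. The test was tried on simulated counts first.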

Additional observations from a re-analysis of the deposited data

How the results depend on the processing

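In the alternatives run, 0 of the called member differences changed sign and 2 that were not called did: Ccng1 in E0771-BrM against 482N1 (-0.00, up to 0.06 without library B of E0771-BrM) and Sesn1 in E0771-BrM against B16F10-BrM (-0.10, 0.15 without library A of B16F10-BrM). Of the member values over all alternatives, 549 of 570 stayed within their spread and 21 moved by more. Of these, 12 came from library B alone for 482N1 and E0771-BrM, out of the 30 member values of that setting. The members' values thus depended more on that choice than on the others. The rest were for Trp53 against 482N1, where 1 count sets the value. The genes called (8592 for B16F10-BrM against 482N1, 8622 for E0771-BrM against 482N1, 8131 for E0771-BrM against B16F10-BrM) became 8337, 8348 and 7873 with DESeq2. No count is given for library B alone, which leaves 1 library each of 482N1 and E0771-BrM. Leaving out 1 library gave 8233 to 8600, 8282 to 8615 and 7780 to 8191 genes, and 75 to 77, 69 to 73 and 64 to 70 of the other p53 genes. Scaling moved the median of all genes by at most 0.06 on the log2 scale. For B16F10-BrM against 482N1, 8 members past the threshold became 9 without library B of B16F10-BrM (Sesn1) and by Phlda3 with upper-quartile scaling (0.37), with only these lines in the fit (0.31) and without library C of B16F10-BrM (0.44). Over all genes, libraries of the same letter varied together weakly at most (correlations of deviations -0.00992 to 0.0898, 0 of 9 over 0.1). Of 18 best matches among letters A, B and C, 10 were with the own letter. The letters were not taken as pairs. Single genes could still follow the letter, as Dct did, which was lowest in library B of both 482N1 and E0771-BrM. With the letter as a replicate block 8595, 8623 and 8162 genes and 77, 73 and 70 of the other p53 genes were called, and the number of members called was 8, 8 and 9 as without it. Alternatives for the members called were added after seeing the data.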
